A study of Mus musculus with 24 samples.

Results

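Of 10578 CpG-rich autosomal gene ends in mouse cells, 470 were more methylated by at least 5 percentage points in embryoid bodies than in the pluripotent cells they were compared with, in wild-type cells and in both of 2 knock-in clones. A gene end here means the 1000 bp before and the 1000 bp after one end of a gene, its start or its 3′ end, whichever has more CpGs nearby, and it is CpG-rich where this window holds 60 or more CpG positions. The methylation level is the percentage of methylated calls among all calls in the window, and 100 or more calls were required in every library. The 470 ends were selected on 3 measured differences, namely embryoid bodies minus day 25 in the wild type and embryoid bodies minus t0 in clone N5 and in clone N9, so these differences (called gains below) describe the members and carry no test. The whole series has 21531 gene-end windows. Members made up 4.44% of the CpG-rich autosomal ends and lay in 450 separate loci, because 20 loci held a pair of members with overlapping windows, which share CpGs and are not independent.

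The data are oxidative bisulfite whole-genome sequencing, which reads 5-methylcytosine without 5-hydroxymethylcytosine, of mouse induced pluripotent stem (iPS) cells grown over feeder cells and of embryoid bodies made from them in hanging drops. Cells without the transgene (wild type) and clones N5 and N9, both miR-203 KI (knock-in), were each sampled as iPS cells at t0, before doxycycline, at day 10, which came 5 days after a doxycycline pulse of 5 days that induces the knock-in miR-203, at day 25, which came 20 days after the pulse, and as embryoid bodies. The labels name doxycycline for the wild-type day 10 and day 25 cells too, and for the embryoid bodies of both clones but not of the wild type, whose label gives 10 days of differentiation where the series design gives 7 days at day 32. The wild type has a pair of count columns at each stage, whose titles carry different lane numbers and the same index, and which were counted as 1 sample. The columns of a pair differed by less than the sampling noise at single CpGs, but over windows their mean chi-square was 2.17 to 2.21, where independent calls would give 1, so intervals from counts of calls are too narrow for a window. A stage thus has 3 libraries, 1 of them wild type and 1 from each single clone, so that p-values measure only the spread between these libraries.

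Libraries held 102896335 to 191210205 calls at CpGs, and a member window held a median of 495.5 calls per library and never fewer than 108. The autosomal methylation level was 60.7% in the wild type, 65.1% in N5 and 65.2% in N9 at t0, and 69.7%, 72.2% and 71.4% in the embryoid bodies, so methylation was also higher outside the members, and the part of that difference in the gains was not tested. The 3 libraries of N5 at t0, of its day 25 and of its embryoid bodies were on another flow cell than the other 9, which leaves each of the 3 gains within a flow cell. Cells of several types are mixed in embryoid bodies, and a higher level in every cell cannot be told apart from a changed mixture of cells. The part of DNA from feeder cells was not tested. Of 7 CpG-rich ends on a fixed list of fibroblast genes, 1 (Tbx15) was a member (14.3%, beside 4.44% of all CpG-rich ends). The list's median level stayed between 1.03% and 5.36% across the 12 libraries.

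Most CpG-rich gene starts lie in CpG islands, which stay unmethylated in nearly all cells, while methylation of the DNA that borders an island, its shore, varies more between cell types. When pluripotent cells leave the pluripotent state, the de novo DNA methyltransferases Dnmt3a and Dnmt3b add methyl groups across the genome, and promoters of genes that act only in germ cells are among the best-known CpG-rich targets. Genes for developmental regulators, which are often held by Polycomb proteins in pluripotent cells, are a further class of CpG-rich ends at which methylation changes during differentiation.

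The RefSeq promoter sequences (build GRCm38.p6, from 250 bases before to 50 after the gene start, 5′ to 3′ on the gene's strand) are shown for the first 6 members, ranked by the smallest of the 3 gains, for which the table had a sequence. They span poor and rich CpG content at the gene start itself, which was not a separate criterion of their choice, and every CpG is in capitals. These bases lie inside the windows that the rule used. Their positions are chr12:33928175-33928474 on the plus strand for Ferd3l, chr8:66511490-66511789 on the plus strand for Tktl2, chr2:25095156-25095455 on the minus strand for Noxa1, chr7:125444370-125444669 on the plus strand for Kdm8, chr11:115334481-115334780 on the plus strand for Otop3 and chr5:137485767-137486066 on the minus strand for Epo.
Ferd3l: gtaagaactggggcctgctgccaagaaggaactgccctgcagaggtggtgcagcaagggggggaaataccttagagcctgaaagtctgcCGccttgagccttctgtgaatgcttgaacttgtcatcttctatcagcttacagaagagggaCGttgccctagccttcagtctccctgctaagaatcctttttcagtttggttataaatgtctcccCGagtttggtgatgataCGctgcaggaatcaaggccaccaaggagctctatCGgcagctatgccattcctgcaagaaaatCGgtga
Tktl2: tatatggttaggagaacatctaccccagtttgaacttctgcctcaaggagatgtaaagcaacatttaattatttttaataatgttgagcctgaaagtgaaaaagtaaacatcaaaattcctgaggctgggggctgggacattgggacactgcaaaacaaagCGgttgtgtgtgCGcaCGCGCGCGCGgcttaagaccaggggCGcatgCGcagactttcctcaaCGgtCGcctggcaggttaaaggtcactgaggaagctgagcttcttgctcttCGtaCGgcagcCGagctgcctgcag
Noxa1: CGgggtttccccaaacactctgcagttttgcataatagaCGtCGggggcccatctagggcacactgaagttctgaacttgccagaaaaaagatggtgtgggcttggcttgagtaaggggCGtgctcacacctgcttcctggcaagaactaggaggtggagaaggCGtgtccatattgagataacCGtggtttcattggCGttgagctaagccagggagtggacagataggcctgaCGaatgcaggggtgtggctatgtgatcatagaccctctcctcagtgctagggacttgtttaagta
Kdm8: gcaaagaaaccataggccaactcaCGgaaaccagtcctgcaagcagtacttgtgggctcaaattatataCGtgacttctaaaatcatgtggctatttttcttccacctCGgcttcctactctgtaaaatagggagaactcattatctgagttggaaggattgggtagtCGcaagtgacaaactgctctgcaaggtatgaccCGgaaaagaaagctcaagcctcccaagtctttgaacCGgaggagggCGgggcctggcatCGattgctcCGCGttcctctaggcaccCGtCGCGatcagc
Otop3: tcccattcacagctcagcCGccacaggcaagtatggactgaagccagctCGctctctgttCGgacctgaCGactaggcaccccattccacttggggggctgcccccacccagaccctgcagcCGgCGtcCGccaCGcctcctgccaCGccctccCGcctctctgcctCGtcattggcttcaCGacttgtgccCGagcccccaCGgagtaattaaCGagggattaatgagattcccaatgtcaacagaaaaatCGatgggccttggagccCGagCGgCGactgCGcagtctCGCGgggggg
Epo: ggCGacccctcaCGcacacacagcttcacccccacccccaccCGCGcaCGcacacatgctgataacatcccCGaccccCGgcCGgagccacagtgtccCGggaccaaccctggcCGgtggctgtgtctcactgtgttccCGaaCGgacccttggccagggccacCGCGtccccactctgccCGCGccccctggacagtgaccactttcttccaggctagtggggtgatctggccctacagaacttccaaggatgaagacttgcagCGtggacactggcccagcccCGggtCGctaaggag

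The 300 bases at Ferd3l, a basic helix-loop-helix transcription factor gene, held 6 CpGs, and those at Noxa1, an activator of NADPH oxidase, held 8. Tktl2, a transketolase-like gene, had 14, many of them in a run of repeated CG before the gene start, and Kdm8, a JmjC-domain hydroxylase gene, had 13. The GC-richer promoters of Otop3, a proton channel gene, and Epo, the gene of erythropoietin, held 22 and 19. The full windows of these 6 genes held 60 to 84 CpGs, so the gene start carried few of the CpGs at Ferd3l and Noxa1 and many at Otop3.

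Within these 300 bases alone the Ferd3l level was 22.0% in the wild type at day 25 (41 calls) and 80.5% in its embryoid bodies (41 calls), against 17.1% at t0 and 70.4% in embryoid bodies for N5 and 25.0% and 67.8% for N9. In Kdm8 the wild type read 5.94% at day 25 and 40.0% as embryoid bodies, N5 13.7% at t0 and 29.0% as embryoid bodies, and N9 10.6% and 37.8%. In Otop3 the same levels were 11.8% and 40.8% in the wild type, 18.9% and 35.7% in N5, and 12.5% and 35.6% in N9. On these contrasts the 3 gene starts read higher in embryoid bodies in every genotype. Their calls are part of the windows, and the contrasts are those of the rule, so this is a description. At Ferd3l other iPS libraries read up to 42.6% (wild type t0, 68 calls) and 40.8% (N9 day 25). At Noxa1 the highest iPS level was 35.8% (wild type t0, 53 calls) and the lowest embryoid body level 43.5% (wild type, 46 calls). At Tktl2 these were 62.5% (wild type t0, 48 calls) and 70.3% (N9, 74 calls). On the same contrasts the Epo start was higher in embryoid bodies too. It read 9.09% and 31.25% in the wild type, 7.14% and 23.5% in N5, and 12.5% and 23.5% in N9. Epo differed only against the other iPS libraries. Its 300 bases read 34.4% in N5 at day 10 (32 calls), above the embryoid bodies of N5 and of N9 (34 calls each). No difference of the Epo gene start from every iPS library was thus detectable at this depth.

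The members' median level lay between 8.15% and 12.9% in the 9 iPS libraries and between 21.7% and 24.6% in the 3 embryoid body libraries. In the wild type it was 11.7% at t0, 11.8% at day 10, 11.2% at day 25 and 21.7% in the embryoid bodies. In the clones the mean of the 2 medians was 12.7% ± 0.295 (SD, n = 2), 11.6% ± 0.697 and 8.25% ± 0.135 over the iPS stages in order and 23.5% ± 1.63 in embryoid bodies. Over all CpG-rich ends the medians at t0 and then in embryoid bodies were 2.95% and 3.65% for the wild type, 3.45% and 4.76% for N5, 3.56% and 4.41% for N9, so the members started from a higher level than the typical CpG-rich end.

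**Figure D1:**
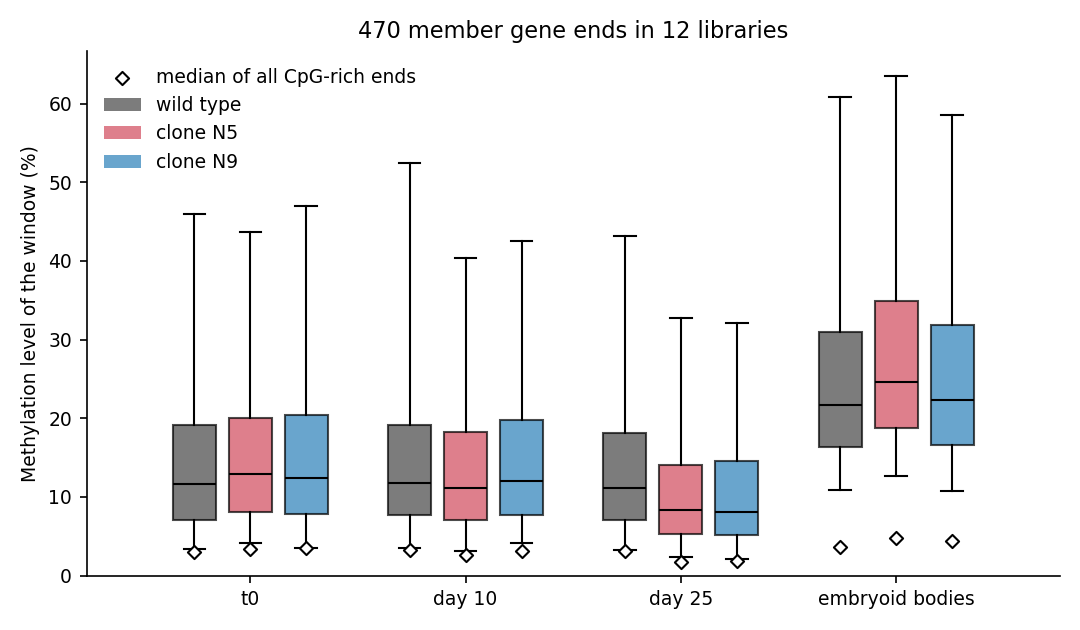
Methylation level of the 470 members (%) in each of the 12 libraries by stage; boxes span the quartiles with the median as a line, whiskers reach the 5th and 95th percentiles, and diamonds mark the median of all 10578 CpG-rich ends. The 3 embryoid body boxes have medians of 21.7%, 24.6% and 22.3%, and the 2 clones' day 25 boxes have medians of 8.35% and 8.15%.

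The gains had a median of 10.2 points in the wild type, 11.3 in N5 and 9.20 in N9, against 0.41, 0.93 and 0.64 points over all CpG-rich ends. Taken singly, 1325 ends passed the 5-point bar in the wild type, 1761 in N5 and 1096 in N9, whereas 165, 113 and 134 were lower by 5 points or more, and no end was lower by that much in all 3. The smallest gain reached 10 points at 98 members and 20 points at 4, and lay under 6 points at 119. Just inside the bar were Tex15 at 5.002 points, Thbd (thrombomodulin) at 5.003 and Spata3 at 5.009, and just outside it Odf2 at 4.998, Psmb8 at 4.997 and Cuedc2 at 4.995, so the ends on either side of the bar hardly differ.

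Measured against the day 10 iPS libraries, which took no part in the choice, the embryoid bodies were higher by 5 points or more in all 3 genotypes at 337 of the 470 members. Of all CpG-rich ends, 604 (5.71%) did so, 267 of them outside the set; since the embryoid body libraries are shared with the rule, this count too is a description. The wild-type t0 library was likewise unused, and wild-type embryoid bodies were higher than it by 5 points or more at 418 members. The median difference was 10.0 points over the members and 0.48 points over all CpG-rich ends. Wild-type embryoid bodies were above the wild-type t0 level at all, by any amount, at 464 members. The same counts over all CpG-rich ends are not given here. The rule used the wild-type embryoid body library, so both counts are descriptions.

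Levels differed among the 3 embryoid body libraries as well. N5 had the highest level at 261 members, the wild type at 109 and N9 at 100, and N5 exceeded N9 at 322 members by a median over all members of 2.23 points. This was not particular to the members. Over all CpG-rich ends the median was 4.76% in N5, 4.41% in N9 and 3.65% in the wild type. The autosomal levels were 72.2%, 71.4% and 69.7% in that order. The N5 embryoid body library was on another flow cell than those of N9 and the wild type, and the part of that was not tested. The wild-type label gives 10 days of differentiation and names no doxycycline, unlike the labels of the clones' embryoid bodies. Genotype cannot be told apart from these differences. The same counts of ends over all CpG-rich ends are not given here. All 3 libraries were above 50% at 33 members and below 20% at 115, so the set holds ends that became mainly methylated and ends that stayed mainly unmethylated. The 95% Wilson interval of a member's level in the wild-type embryoid body library had a median width of 7.24 points and covers counting error of independent calls only.

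The member with the largest smallest gain was Ferd3l, with 61 CpGs at chr12:33927425-33929425 around its gene start. In the order t0, day 10, day 25, embryoid bodies, its level was 20.2%, 18.6%, 14.9% and 49.3% in the wild type, 19.3%, 18.1%, 16.8% and 46.5% in N5, and 13.5%, 18.3%, 25.2% and 49.6% in N9. All 9 iPS libraries lay at or below 25.2% and all 3 embryoid body libraries at or above 46.5%. The wild-type embryoid body level had a Wilson interval of 45.0% to 53.6%.

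Tktl2 (chr8:66510740-66512740, 60 CpGs) started from a partly methylated state. It read 59.7%, 58.9%, 55.1% and 79.8% in the wild type in the same order, 45.1%, 34.5%, 37.0% and 78.5% in N5, and 48.0%, 45.3%, 38.1% and 84.9% in N9. The 3 embryoid body libraries lay between 78.5% and 84.9%, while the clones' iPS cells were below the wild type at every stage. Noxa1 (chr2:25094205-25096205, 60 CpGs) showed a like range, with 55.9%, 56.7%, 43.2% and 78.4% in the wild type, 53.0%, 44.9%, 36.3% and 83.7% in N5, and 52.4%, 41.3%, 37.7% and 75.6% in N9. In both genes the 3 embryoid body libraries stood above all 9 iPS libraries. Like Ferd3l, they lead a ranking by the gains themselves, so this separation is a description.

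Kdm8 (chr7:125443620-125445620, 84 CpGs) read 19.3%, 20.8%, 18.3% and 37.8% in the wild type, 25.8%, 18.6%, 16.9% and 54.2% in N5, and 18.8%, 20.5%, 15.6% and 39.6% in N9. Its clones therefore differed in embryoid bodies, with a mean of 46.9% ± 10.3 (SD, n = 2). Epo (chr5:137484816-137486816, 63 CpGs) read 22.5%, 24.3%, 23.3% and 42.1% in the wild type, 29.6%, 33.3%, 28.0% and 49.6% in N5, and 27.2%, 30.1%, 25.3% and 47.4% in N9. Over the whole Epo window, which was chosen on its gains, the embryoid bodies were above every iPS library, unlike the 300 bases at its start.

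**Figure D2:**
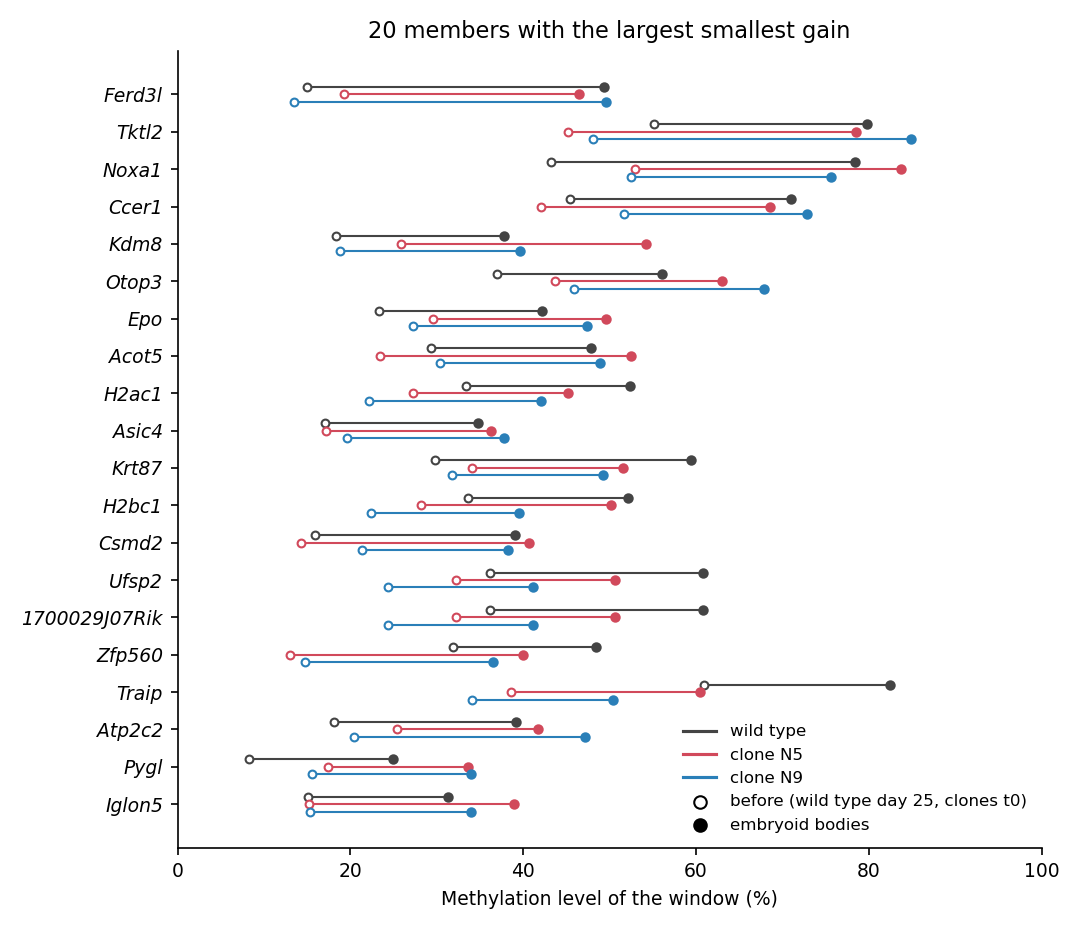
Methylation level of the window (%) at the 20 members with the largest smallest gain, one row per gene; open points are the libraries the gain starts from (wild type day 25, clones t0), filled points the embryoid bodies, and a line joins the 2 points of a genotype. Ferd3l ends between 46.5% and 49.6% in the 3 genotypes, and Traip ends at 82.5% in the wild type and 50.4% in N9.

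Several of the other leading members belong to families of a known kind. H2ac1 and H2bc1, the divergent genes of the testis histones, share CpGs at chr13:23933156-23935437 and had gains of 17.9 to 19.9 points and of 17.1 to 22.0 points in the 3 genotypes. Ufsp2, a UFM1-specific protease gene, and 1700029J07Rik hold the same 82 CpGs and count as 1 locus, with gains of 24.7, 18.4 and 16.8 points. Traip, a ubiquitin ligase gene, was at 60.9% in the wild type at day 25 but 38.6% and 34.0% in N5 and N9 at t0, and its embryoid bodies read 82.5%, 60.4% and 50.4%. Pygl, liver glycogen phosphorylase, gained 16.6, 16.2 and 18.4 points from levels of 8.31%, 17.4% and 15.6%. The remaining leading members (Ccer1, Otop3, Acot5, Asic4, Krt87, Csmd2, Zfp560, Atp2c2 and Iglon5) had smallest gains between 16.1 points (Iglon5) and 21.3 points (Ccer1).

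Germ-cell genes held 9 members among 31 CpG-rich ends on a fixed list (29.0%), a description that stands beside the 4.44% of all CpG-rich ends. They were Sycp2 and Sycp3, which build the lateral elements of the synaptonemal complex, Smc1b of meiotic cohesin, Brdt, a testis bromodomain gene, Mov10l1 of the piRNA pathway, Dazl, a germ-cell RNA-binding protein gene, Stk31, Tex15 and Rpl10l. Median gains over the 31 ends were 2.97 points in the wild type, 11.7 in N5 and 2.65 in N9, so the gain was higher in N5 than in the others; its libraries were on the other flow cell, and the part of that was not tested. The list's median level in iPS cells was already 23.5% in the wild type, 23.7% in N5 and 23.1% in N9 at t0. Among all CpG-rich ends whose clones' t0 level lay from 10% to under 30%, 15.7% were members. The part of the starting level in the list's share was not tested.

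Sycp3 read 57.8%, 51.6%, 47.7% and 61.1% in the wild type, 43.3%, 47.3%, 30.4% and 71.6% in N5, and 52.5%, 45.6%, 32.1% and 69.6% in N9. Its wild-type embryoid bodies were close to wild-type t0, and the wild-type gain is counted from the lower day 25 level. Dazl showed this more strongly, with 42.7%, 30.4%, 11.2% and 47.9% in the wild type, 27.8%, 34.0%, 20.7% and 41.2% in N5, and 37.6%, 25.8%, 18.4% and 45.0% in N9. The Wilson interval of the wild-type day 25 level of Dazl ran from 8.00% to 15.4% and that of its embryoid bodies from 43.3% to 52.5%. The rule chose on this pair of libraries, and such intervals are too narrow for a window, so they are no test of the difference. Mov10l1 was the most methylated germ-cell member, at 74.7%, 78.3% and 79.7% in embryoid bodies after 65.4% at wild-type day 25 and 66.6% and 63.7% at t0 in N5 and N9.

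Homeobox and other developmental regulator genes gave 12 members among 120 CpG-rich ends (10.0%, beside 4.44% of all CpG-rich ends). Among them were Dlx1, Hoxa3, Hoxb13, Hoxc6, Hoxd12, Hmx3, Irx2, Nkx2-6, Pax1, Pax2 and Tbx15. Most ended at low levels, and the largest smallest gain was that of Hoxd12, which read 8.70%, 11.4%, 5.11% and 20.0% in the wild type, 16.6%, 14.9%, 6.18% and 28.2% in N5, and 12.0%, 11.7%, 7.39% and 29.4% in N9. At Hoxd12, picked by its gains, every embryoid body library was above every iPS library. The list's median end moved little, with gains of 1.52, 2.38 and 1.46 points.

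Endoderm genes gave 3 members of 8 CpG-rich ends (37.5%, beside 4.44% of all CpG-rich ends), among them Sox17 and Pdx1. Sox17, an early endoderm regulator, read 3.75%, 6.87%, 3.63% and 17.6% in the wild type, 6.45%, 7.98%, 4.85% and 19.6% in N5, and 4.78%, 4.68%, 6.30% and 14.9% in N9. Pdx1, a pancreas regulator, had gains of 15.6, 22.6 and 8.60 points. At Pdx1 the outer part of the window carried the difference, with gains of 30.9, 38.6 and 28.9 points at 500 to 1000 bp and of 4.10, 3.52 and 3.90 points within 250 bp of the gene start.

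The other lists gave at most 2 members each, and 4.44% of all CpG-rich ends were members. Their shares were 5.88% for imprinted genes, 5% for methylation machinery and 8.33% for clustered protocadherins. They were 10% for mesoderm and cardiac, 25% for blood and 14.3% for trophoblast genes. These rest on 1 or 2 members each, and no list was tested against the share of all ends. Imprinted genes had 2 of 34 (Inpp5f and Peg13), methylation machinery 1 of 20 (Zfp445, a zinc finger gene that protects imprints), clustered protocadherins 1 of 12 (Pcdha8), mesoderm and cardiac genes 1 of 10 (Mesp2), blood genes 1 of 4 (Spi1) and trophoblast genes 1 of 7 (Tfap2a). None of 20 pluripotency genes, 16 neuroectoderm genes, 9 housekeeping genes or 1 gene of the 2-cell-like state was a member. Inpp5f differed between the clones before differentiation, at 38.5% in N5 and 21.2% in N9 at t0, and reached 49.9% and 41.2% in their embryoid bodies while the wild type read 27.8% at day 25 and 42.9% as embryoid bodies.

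Members sat at the CpG-poorer edge of the CpG-rich ends. They had a median of 74 CpGs per window against 97 over all CpG-rich ends, and 63.6% of them had 60 to 79 CpGs against 27.2%. Among ends with 60 to 69 CpGs, 11.8% were members, with 3.99% at 80 to 99 CpGs and 0.461% at 130 or more. Windows with fewer CpGs also had fewer calls, with a median of 495.5 per library in members and 652 in all CpG-rich ends, and the part of depth in these shares was not tested. They were also more common where the clones' t0 level, a value the rule used, was higher: 1.87% of ends under 10% were members, 15.7% of those from 10% to under 30%, 37.6% (44 of 117) of those from 30% to under 60%, and 12 of 21 above that.

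Where the strand was listed, 323 members were at a gene start and 34 at a 3′ end, and the strand of 113 was not listed. The 3′ ends were 9.52% of the members with a listed strand and 4.00% of all CpG-rich ends with one. Per chromosome, members were 1.96% of the CpG-rich ends on chromosome 17 and 7.18% on chromosome 12, the lowest and highest shares of the 19 autosomes.

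In most members the outer part of the window gained more than its middle. Of 425 members with 30 or more calls in every library in both parts, 226 had a larger gain at 500 to 1000 bp than within 250 bp of the gene end in all 3 genotypes, and 58 had the reverse. The median of the members' mean gains was 5.76 points in the middle and 15.1 points in the outer part, against 0.17 and 1.32 points over 10017 CpG-rich ends. The members' middle stayed low in median terms, at 2.14% in the wild type at day 25 and 7.79% in embryoid bodies, while the outer part read 20.2% and 40.2%. At 145 members the middle itself gained 5 points or more in all 3 genotypes, and at 58 it gained under 2 points in each. Ferd3l, with 49.4, 45.4 and 40.2 points in the middle and 19.4, 11.7 and 29.4 points outside in the wild type, N5 and N9, was among those with the larger gain in the middle.

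**Figure D3:**
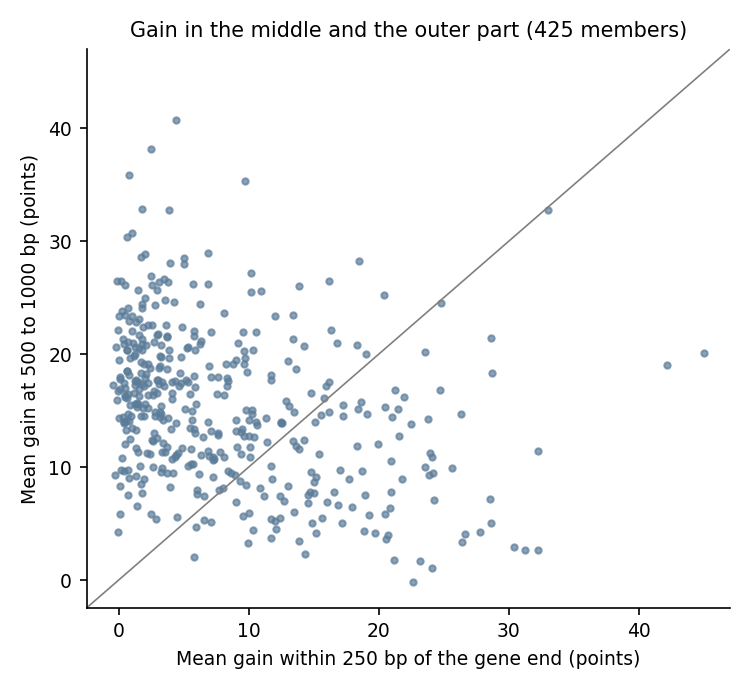
Mean of the 3 gains (percentage points) within 250 bp of the gene end on the x axis and at 500 to 1000 bp on the y axis for 425 members, one point per member, with the line of equal gain. The cloud lies mainly above the line, with medians of 5.76 points in the middle and 15.1 points outside.

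Around the 323 members at a gene start, the pooled gain was lowest just after the start and highest upstream. From 0 to 250 bp it was 6.16 points in the wild type, 6.23 in N5 and 5.00 in N9, and from 750 to 500 bp upstream it was 18.8, 17.8 and 16.3 points. At 7804 other CpG-rich gene starts the same bins read 0.21, 0.30 and 0.26 points and 1.98, 3.45 and 2.12 points. Just outside the window the rule used, the members still gained more. From 1250 to 1000 bp upstream they gained 14.2, 14.4 and 13.7 points, against 3.62, 5.54 and 3.34 at the other starts. From 1000 to 1250 bp downstream these were 14.0, 12.8 and 10.8 against 1.37, 2.78 and 1.80 points. Between 5000 and 4750 bp upstream, the members' gains of 9.91, 8.49 and 8.69 points were closer to the 8.02, 7.55 and 5.28 points at the other starts.

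**Figure D4:**
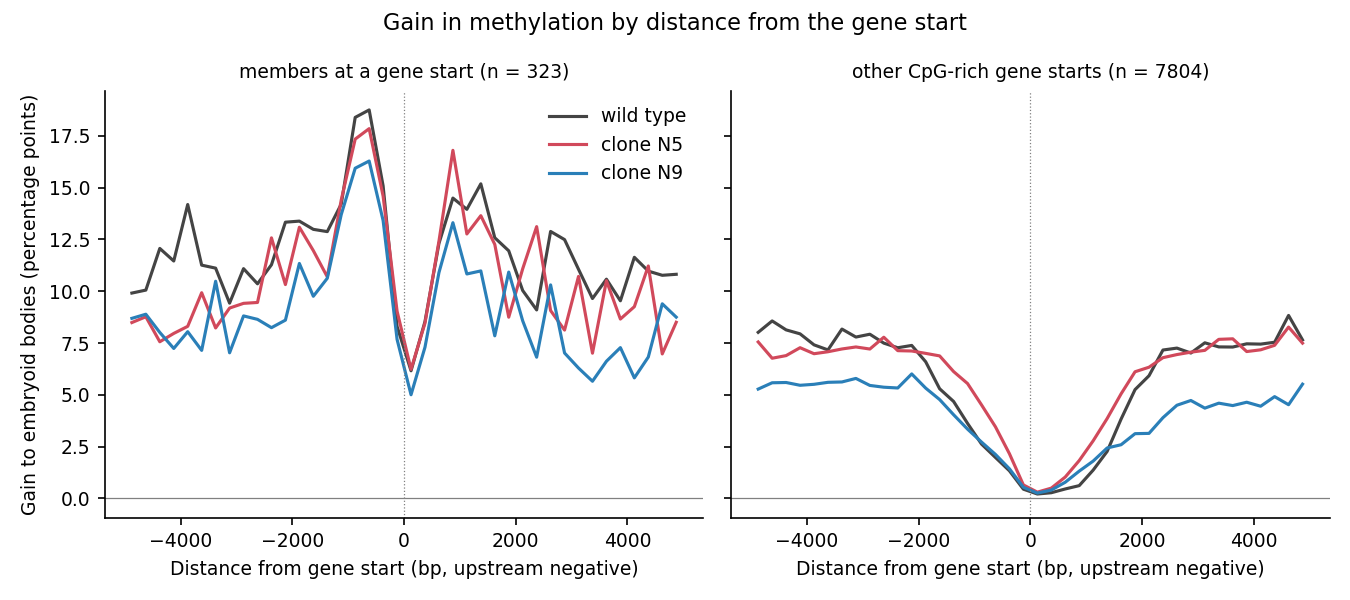
Gain to embryoid bodies (percentage points) in bins of 250 bp by distance from the gene start (bp, upstream negative), for the 323 members at a gene start and for 7804 other CpG-rich gene starts, with one line for each genotype. The members' lines peak at 18.8, 17.8 and 16.3 points upstream and dip to 6.16, 6.23 and 5.00 points after the start, and the other starts dip to 0.21 to 0.30 points.

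RefSeq gave a promoter sequence at the gene start for 198 members and for 4671 CpG-rich ends in all. The members' 300 bases held a median of 19 CpGs against 23, and their observed-over-expected CpG ratio was 0.653 against 0.811, although GC content was alike at 62.0% and 63.0%. Of 6 motifs searched on both strands, the TATA box TATAAA was in 13.6% of member promoters and in 7.24% of all, and the GC box CCGCCC in 60.1% and 72.0%. GCGGGA, the core bound by E2F factors, was in 33.8% and 40.8%, CCAAT in 33.3% and 39.6%, the E-box CACGTG in 11.1% and 11.6%, and CGCATGCG, bound by NRF1, in 1.52% and 4.69%. These are counts of letters in the sequence and show no binding.

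The clones' day 10 and day 25 libraries were not used by the rule, so the change between them was tested. With edgeR's quasi-likelihood test over 20328 gene ends, adjusted by Benjamini-Hochberg, 21 of the 470 members fell and 0 passed in the other direction. Of all CpG-rich autosomal ends 4.47% fell and 0.0189% rose, and of all ends tested 10.1% fell and 0.0148% rose. Split by the clones' mean day 10 level, the share that fell was 2.14% of members and 6.80% of all CpG-rich ends from 5% to 10%, 3.93% and 8.74% from 10% to 20%, 9.68% and 8.65% from 20% to 30%, and 9.30% and 19.4% above 30%. Under 5% these shares were 2.13% and 2.84%. From the lowest range to the highest, the member shares rest on only 1 of 47, 3 of 140, 7 of 178, 6 of 62 and 4 of 43 members. Without the split, the share of 21 in 470 members was close to the 4.47% of all CpG-rich ends. No difference between the shares was tested. At an unadjusted p under 0.05, 121 members were lower and 0 higher, beside 21.4% and 0.246% of CpG-rich ends. The members' median change was -0.55 in log2 odds of methylation against -0.61 for CpG-rich ends and -0.69 for all ends. Centring each library on its median CpG-rich end shifts all ends alike, and by limma the median of all ends went from -0.67 to -0.01, that of CpG-rich ends from -0.60 to 0.07 and that of the members from -0.55 to 0.11. On the centred scale 6 members were lower and 20 higher at an unadjusted p under 0.05, beside 3.65% and 4.62% of CpG-rich ends.

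The call with the lowest p was Gpr83, an orphan receptor gene, which read 7.50% in N5 and 10.2% in N9 at day 10 and 1.94% and 1.93% at day 25. Its log2 odds fell by 2.28 (SE 0.437, adjusted p = 0.00289, edgeR), with 18.4% and 10.3% in the wild type at the same stages. Nos1, neuronal nitric oxide synthase, went from 45.5% and 52.2% to 24.2% and 28.1%, a fall of 1.44 in log2 odds (SE 0.337, adjusted p = 0.0116, edgeR), and its wild-type library stayed at 63.8% and 63.0%. Tex12, a synaptonemal complex gene, went from 45.2% and 41.0% to 22.5% and 19.9% (adjusted p = 0.011, edgeR), with 43.8% and 47.4% in the wild type.

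Lgals7, the gene of galectin-7, whose window lies at its 3′ end, read 17.6% and 25.8% at day 10 and 9.10% and 5.90% at day 25 (adjusted p = 0.0101, edgeR). Nsun3, a mitochondrial tRNA methyltransferase gene, read 8.10% and 10.4% and then 1.43% and 3.97% (adjusted p = 0.0146, edgeR). In each of these 5 genes both clones were lower at day 25. The 21 members that fell had a median level of 19.8% at day 10 and 8.03% at day 25 in the clones.

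**Figure D5:**
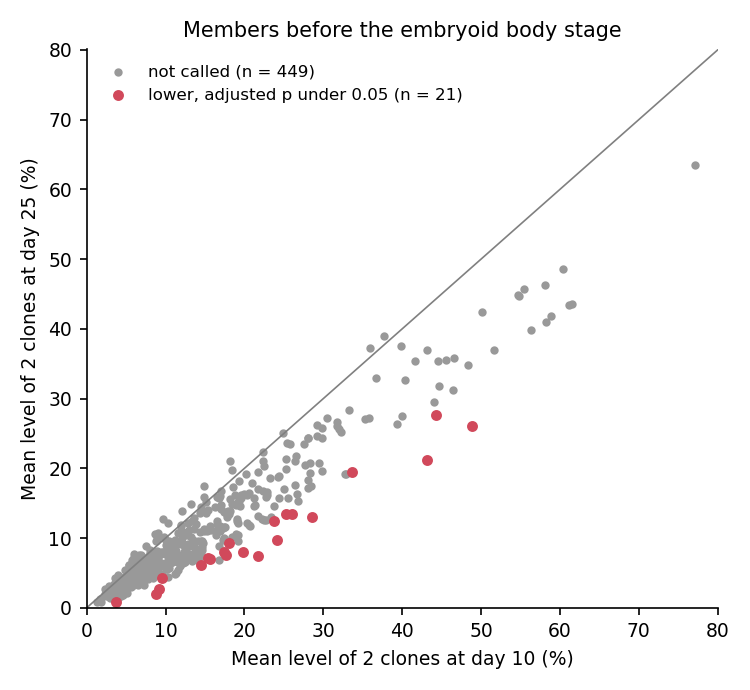
Mean level of the 2 clones (%) at day 10 on the x axis and at day 25 on the y axis for the 470 members, with the line of equal level; red points are the 21 members with an adjusted p under 0.05 in edgeR's test. Both clones were lower at day 25 at 337 members, and all red points lie under the line.

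Both clones were lower at day 25 than at day 10 at 337 members (71.7%) and both were higher at 16; of all CpG-rich ends, 60.8% were lower in both. The median difference was -2.44 points in N5, whose 2 libraries were on different flow cells, and -3.56 points in N9, whose 2 libraries were on the same one. The wild type, with 1 library a stage and no test, had a median difference of -0.89 points. It was lower at 286 members (60.9%), beside 52.7% of CpG-rich ends. The rule used the wild-type day 25 library and favours ends that are low in it, so these wild-type values only describe the members. Over all CpG-rich ends the median differences were -0.07 points in the wild type, -0.60 in N5 and -0.96 in N9. The count of 21 rests on the model: limma on logit values called 2 members (0.558% of CpG-rich ends lower and 0.00945% higher), limma after centring called 0, and without N9 at day 10, N5 at day 25 or N9 at day 25 edgeR called 4, 4 and 2.

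No member passed edgeR's test between the clones and the wild type at day 10, with 0 lower and 0 higher. The background was 0.0148% lower and 0% higher of all ends tested, and 0% in both directions of CpG-rich ends. At an unadjusted p under 0.05, 17 members were lower and 9 higher, beside 4.58% and 1.94% of CpG-rich ends, and limma called 0 in either direction after adjustment. The lowest adjusted p was that of H2ac1, where the wild type read 56.1% (Wilson interval 49.1% to 62.8%) and N5 and N9 25.3% and 15.9%, a log2 odds difference of -2.29 (SE 0.437, adjusted p = 0.0531, edgeR). The wild-type day 10 library was itself above its t0 and day 25 libraries at H2ac1, which read 31.2% and 33.3%. H2bc1, which shares CpGs with it, had an adjusted p of 0.0628 (edgeR). Under 8 other settings H2ac1 passed with a minimum of 30 calls (adjusted p = 0.0421, edgeR) and without N5 at day 10, which sets 1 clone library against 1 wild-type library (adjusted p = 0.0361, edgeR). In the other 6, limma included, its adjusted p lay between 0.0562 and 0.47.

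When the level was taken as the mean over CpGs and only CpGs called in every library were kept, in place of pooled calls over all CpGs, 475 ends passed, of which 295 were among the 470 members (62.8% of these members and 62.1% of the other set).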

How the data were processed

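The authors deposited 1 table of CpG positions that holds, per the file headers, raw counts of calls (methylated, and in total) for each library. BWA, Picard 1.91 and the build mm10 are listed in the submitters' processing notes; which program called methylation was not given in the sources used here. Its 32 value columns were each tied to a library, with 0 unused. The 2 columns of each wild-type stage, with different lane numbers and the same index in their titles, were summed as 1 library; their mean chi-square was 0.945 to 0.955 per CpG (1.05 to 1.10 between clones) and 2.17 to 2.21 per window (2.21 to 2.98 between clones).

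Calls were pooled over windows placed with RefSeq gene ends, and depth was 102896335 to 191210205 calls a library. Methylated and unmethylated counts of 20328 ends with 5 or more CpGs and 10 or more calls in every library were tested with edgeR 4.0.16 (quasi-likelihood, 8 groups, 4 residual degrees of freedom, threshold 0.05) and, as an alternative, limma 3.58.1; both were run in R 4.3.3. The test was checked on simulated counts. The spread of the clones stands in for that of the single wild-type library. Libraries of a clone come from the same line and so are paired over stages; the difference between N5 and N9 correlated between stages with r from -0.04 to 0.07 over CpG-rich ends.

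The members and the 14 gene lists were chosen with earlier results of these data known. Named were the 20 members with the largest smallest gain, every list member (some are not reported here), the 5 members with the lowest p in each direction of a test and the 3 ends on each side of the threshold. The other alternatives were the rule's limits, window size, coverage minimum, a replicate block, a flow cell term, centring and leaving out each clone library. H2ac1's calls under other settings and the counts per list were read after the values were seen.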

Additional observations from a re-analysis of the deposited data

Results flagged for a closer look

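Between t0 and day 10 the members' median level moved in opposite directions in the wild type and the clones. It was higher by 0.117 points in the wild type and changed by -1.77 points in N5 and -0.371 points in N9. Over all CpG-rich ends the medians went from 2.95% to 3.21% in the wild type, from 3.45% to 2.66% in N5 and from 3.56% to 3.12% in N9. With the mean of CpG levels the members' median in the wild type went from 10.8% to 10.6%, lower as in the clones. The difference between genotypes was not tested, the wild type has 1 library a stage, and the N5 libraries of these 2 stages were on different flow cells.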

How the results depend on the processing

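The number of members moved with the rule's limits. It was 900 at 3 points and 98 at 10 points, 722 at 50 CpGs and 171 at 80 CpGs, and 36 with windows of 500 bp and 1890 with windows of 2000 bp on either side. It was 475 at 50 calls, 436 at 200 calls and 475 with the mean of CpG levels. The same members in windows of 500 bp had median levels of 5.77%, 5.96%, 5.17% and 13.6% in the wild type at t0, day 10, day 25 and in embryoid bodies and of 6.35%, 5.10%, 4.04% and 15.1% in the clones. In windows of 2000 bp these were 22.3%, 22.4%, 21.6% and 34.4%, and 23.7%, 22.2%, 16.7% and 36.1%. With the mean of CpG levels the clones' medians were 12.3%, 10.5%, 7.87% and 21.2%.

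From day 10 to day 25 in the clones, 2 members fell by limma, 0 by limma after centring, and 2 to 19 when a clone library was left out. In the paired fit with the replicate block 25 members fell, and with the block and a flow cell term 22. Of the 55 alternative values of the 5 genes named in that test, 36 stayed past the threshold, 19 did not and 0 changed sign. At day 10 the clones were lower than the wild type at 1 member with a minimum of 30 calls, and at 0 to 1 when a clone library was left out, which sets 1 clone library against 1 wild-type library; the replicate block gave 0 in both directions.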
